A study of Mus musculus with 6 samples.

Results

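The genes of the aminoacyl tRNA synthetases, the enzymes that load each amino acid onto its tRNA, were followed in mouse bladder tumor organoids given the compound SRT1720 or vehicle. The family was chosen by name: 36 of the 51912 gene IDs in the deposited expression table, of which 20 encode cytosolic and 16 mitochondrial enzymes. All 20 cytosolic and 11 of the 16 mitochondrial genes had a mean of at least 1 TPM, the deposited unit of reads relative to gene length and library size, over all libraries, and these 31 were tested among 9287 genes that reached that level. No synthetase gene passed the test between SRT1720 and vehicle after adjustment over those 9287 genes, and libraries of the same group often lay further apart than the group means.

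Bulk RNA was sequenced from 6 libraries of organoids, which are small cultures grown from tumor cells, all labelled as bladder tumor organoids of strain C57BL/6. In one group, SRT1720, 3 libraries came from treated organoids, and in the other, Vehicle, 3 came from organoids that received vehicle; the labels used here give no dose, time or age. SRT1720 is known as a compound that activates SIRT1, a protein deacetylase, and the study's title names growth of bladder cancer in organoids. Whether replicates were separate cultures or animals is not in the labels, so the spread behind every p-value is that between these libraries and may be technical.

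Each synthetase recognises one amino acid and its tRNAs, and the charged tRNA is then carried to the ribosome. Cytosol and mitochondria mostly use separate enzymes from separate genes, but Gars (glycyl) and Kars (lysyl) each supply both compartments from a single gene. When an amino acid runs short, uncharged tRNA activates the kinase GCN2 (gene Eif2ak4), translation of the transcription factor ATF4 goes up, and ATF4 switches on genes of amino acid synthesis, amino acid import and a large share of the cytosolic synthetases. The same ATF4 program also answers stress of the endoplasmic reticulum and other stresses through the related kinases Eif2ak3, Eif2ak1 and Eif2ak2.

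The depth recovered from the table was 18248722 to 22837770 reads per library, and the smallest count behind a value of a tested synthetase was 164 reads. Of 20 keratin and urothelial markers 14 reached 1 TPM, among them the epithelial adhesion gene Epcam at 69.4 to 191 TPM. The uroplakin genes, markers of differentiated urothelium, differed: Upk3a was at 0 in all 6 libraries, but Upk1b had a mean of 5.15 TPM (0.660 to 12.1). Upk1a and Upk2 had means of 0.529 and 0.183 TPM. Of markers of other cells, 2 of 12 leukocyte, 1 of 10 fibroblast, 0 of 8 endothelial and 0 of 7 smooth muscle genes reached a mean of 1 TPM. Single libraries were higher: the macrophage gene Lyz2 was at 10.5 TPM in SRT1720 2 and 14.3 TPM in Vehicle 1 and at 0 in the other 4, and the smooth muscle actin Acta2 was at 4.26 TPM in Vehicle 3. The Lyz2 values rest on at most 158 reads and a recovered length of 188 bases, against 1316 for its longest transcript. That short length raises its TPM. Among fibroblast markers, Fbln1 was highest in Vehicle 3 (10.8 TPM) and SRT1720 3 (6.79 TPM) and ran from 0.568 to 1.5 TPM elsewhere. Other markers of the list went the other way. Dcn was highest in Vehicle 1 (2.62 TPM) and SRT1720 2 (1.62 TPM). Dcn, Col1a2, Col3a1, Lum and Thy1 were at 0 in both SRT1720 3 and Vehicle 3. Summed fibroblast markers ranged from 1.32 to 6.85 TPM with SRT1720 and from 1.15 to 11 TPM with vehicle. In SRT1720 3 and Vehicle 3, the highest sums of each group, nearly all of the sum was Fbln1. Libraries of the same group stood apart from each other. The basal keratin Krt5 was low in SRT1720 1 (16.4 TPM) and Vehicle 2 (9.61 TPM) and ran from 425 to 1120.1 TPM elsewhere. SRT1720 3 and Vehicle 3 had 702 and 1560 TPM of mitochondrial ribosomal RNA against 135 to 198 TPM elsewhere, and the 407 tested genes of chromosome 3 lay at a median of -0.39 and -0.41 log2 from their own means in these libraries, against 0.14 to 0.26 in the other 4. In bulk RNA, fewer cells of a type and less RNA per cell cannot be told apart.

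The cytosolic synthetases spanned a wide range of levels. Levels were expressed as reads per kilobase of the longest annotated transcript per 1000000 reads, and the order of genes depends on that choice of length. On this scale Nars (asparaginyl) was highest with a mean of 193 and a range of 89.0 to 310.3 over the 6 libraries. Gars followed at 140.0 (69.4 to 211), then Rars (arginyl) at 120.2 (56.8 to 212) and Vars (valyl) at 99.0 (57.9 to 143). Each of these ranges overlapped the next, so that neighbours in the order did not separate. By deposited TPM, which rests on other lengths, Tars (23.5) and Lars (21.4) had higher means than Vars (12.2). Farsa, the catalytic alpha subunit of the phenylalanyl enzyme, was the lowest of the 20 at 20.4 (12.8 to 29.5), below its partner Farsb, the beta subunit, at 63.7 (41.0 to 88.6), and the ranges of the pair did not overlap.

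Mitochondrial synthetases were lower on the same scale: apart from Lars2, each had a mean below that of every cytosolic gene. Lars2 (mitochondrial leucyl) had a mean of 73.3 and a range of 52.7 to 99.5, above the highest library of the next gene, Iars2 (isoleucyl), at 17.6 (13.8 to 20.3). By deposited TPM the gene next to Lars2 was Fars2, whose mean (3.32) was slightly above that of the cytosolic Farsa (3.27). The highest library of Fars2 (5.21 TPM, Vehicle 1) there passed the lowest of Lars2 (4.98 TPM, Vehicle 3). Wars2 (tryptophanyl) was lowest at 2.65 (1.20 to 3.68), next to Ears2 (glutamyl) at 2.67 (2.10 to 3.59). Summed over the deposited TPM values, the 20 cytosolic genes came to 466, 280.4 and 193 TPM in SRT1720 1 to 3 and 364, 404 and 199 TPM in Vehicle 1 to 3. The 16 mitochondrial genes came to 32.8, 33.2 and 32.0 TPM and 31.6, 27.5 and 26.4 TPM. The cytosolic sums thus varied widely inside each group, while the mitochondrial ones lay close together. The 3 SRT1720 sums were above the 3 Vehicle sums by a narrow margin, 32.0 TPM in SRT1720 3 against 31.6 TPM in Vehicle 1. That order describes the deposited values only, because the sums were not scaled between libraries. Median-of-ratios scaling factors ran from 0.954 (Vehicle 3) to 1.062 (SRT1720 1), a wider span in proportion than the margin between the groups. The order of the sums may therefore not hold after scaling. The sums also include the 5 genes below the filter.

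The comparison of treated with vehicle organoids asks whether the drug shifted the charging enzymes. With limma on log2(TPM + 1) and Benjamini-Hochberg adjustment, 0 of 20 cytosolic and 0 of 11 mitochondrial genes passed an adjusted p of 0.05, and percent called was 0% over all 9287 genes. At an unadjusted threshold of 0.05 there were 1153 genes (12.4%), of which 730 (7.86% of those tested) were higher and 423 (4.55%) lower with SRT1720. The share of higher genes among them was 63.3%, but 51.5% after median-of-ratios scaling, and limma voom on recovered reads called 0 genes adjusted and 1125 unadjusted. At that threshold stood 3 cytosolic genes (Farsa, Hars, Kars) and 1 mitochondrial gene (Sars2), all higher with SRT1720; 0 cytosolic genes did without SRT1720 1, SRT1720 2 or Vehicle 3, and 1 without Vehicle 2. The groups did not overlap for 2 of 20 cytosolic genes (10%) and 2 of 11 mitochondrial genes (18.2%), all 4 higher with SRT1720, against 19.9% of all tested genes in either direction (12.1% higher, 7.75% lower). Against the 12.1% of genes that were higher, the cytosolic share was below and the mitochondrial share, which rests on 2 genes, was above. Fold changes below are on the log2(TPM + 1) scale, SRT1720 minus Vehicle with the standard error, and this scale understates the change of low genes.

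The 20 cytosolic genes had log2 fold changes from -0.48 to 0.84 with a median of -0.11, 8 above 0 and 12 below. The 11 tested mitochondrial genes ran from -0.19 to 0.54 with a median of 0.16, 8 above 0 and 3 below. Over all tested genes the median was 0.04 and 54.8% lay above 0. Leaving out SRT1720 3 turned the cytosolic median to 0.18, with 18 of 20 genes above 0, and leaving out Vehicle 1 or Vehicle 2 turned it to 0.06. The mitochondrial median stayed above 0 without each library in turn, from 0.10 to 0.24.

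**Figure D1:**
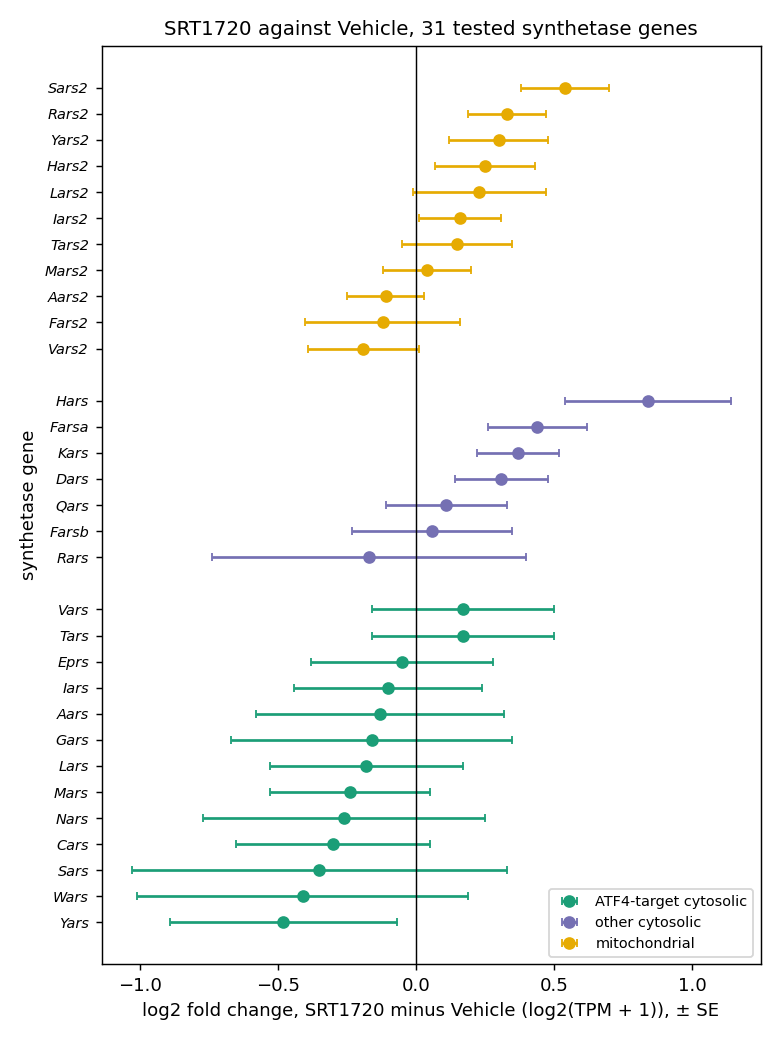
Log2 fold change (horizontal axis, SRT1720 minus Vehicle on log2(TPM + 1), bars ± SE, 3 libraries a group) of the 31 tested synthetase genes in 3 groups: mitochondrial, other cytosolic, and cytosolic genes reported as ATF4 targets. Points of the ATF4-target group lie between -0.48 and 0.17 with wide bars, and Hars at 0.84 is the highest of all.

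By published knowledge of the family, 13 cytosolic synthetases are ATF4 targets (Aars, Cars, Eprs, Gars, Iars, Lars, Mars, Nars, Sars, Tars, Vars, Wars, Yars). In all 13 the standard deviation within each group exceeded the difference between the group means. Gars was at 49.1, 27.1 and 16.1 TPM in SRT1720 1 to 3 and 49.0, 37.7 and 16.4 TPM in Vehicle 1 to 3. Its groups covered the same range, with SRT1720 3 and Vehicle 3 low in each, and the log2 fold change was -0.16 (SE 0.51, adjusted p = 0.938, limma). Sars (seryl) was at 24.9, 12.8 and 5.08 TPM with SRT1720 and 23.7, 25.1 and 6.07 TPM with vehicle. Here too the third library of each group was the lowest and the groups overlapped (log2 fold change -0.35, SE 0.68, adjusted p = 0.888, limma); the highest library was 4.94 times the lowest, the widest ratio among the 31 tested members. Sars lies on chromosome 3, whose genes as a whole were low in the same 2 libraries; the part of this in the value of Sars was not tested.

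Nars, the most abundant member, was at 126, 59.8 and 35.9 TPM with SRT1720 and 80.7, 118 and 49.0 TPM with vehicle. SRT1720 1 and Vehicle 2 stood highest and the third libraries lowest, and the log2 fold change was -0.26 (SE 0.51, adjusted p = 0.892, limma). Wars (tryptophanyl) was at 14.8, 3.92 and 3.86 TPM against 7.05, 17.8 and 4.88 TPM. Only SRT1720 1 and Vehicle 2 exceeded 10 TPM, so each group held both high and low libraries. Yars (tyrosyl), at 9.21, 5.08 and 3.47 TPM against 8.72, 12.5 and 4.71 TPM, had the lowest fold change of the family, -0.48 (SE 0.41, adjusted p = 0.685, limma), with overlapping groups.

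Among the remaining ATF4-target genes, Cars was the exception to low values in both SRT1720 3 and Vehicle 3, since its Vehicle 3 lay slightly above SRT1720 2. Aars (alanyl) was at 14.2, 8.61 and 4.88 TPM with SRT1720 and 13, 12.4 and 5.05 TPM with vehicle. Iars (isoleucyl) was at 15.5, 9.53 and 6.77 TPM against 13.7, 12.4 and 7.35 TPM. For both genes the third libraries of the 2 groups were nearly equal and below the other 4. Cars (cysteinyl) was at 11, 6.39 and 3.82 TPM with SRT1720 and 10.4, 8.46 and 6.46 TPM with vehicle. Lars (leucyl) was at 31, 18.5 and 12.3 TPM against 23.3, 26.4 and 17.1 TPM. In Cars and Lars the lowest library was SRT1720 3, and the log2 fold changes were -0.30 (SE 0.35) and -0.18 (SE 0.35). Eprs, a fused enzyme that charges both glutamate and proline tRNAs, was at 9.18, 6.19 and 4.51 TPM against 7.47, 9.20 and 4.13 TPM. It had the largest p of the tested members (adjusted p = 0.972, limma), although its highest library was 2.23 times its lowest. Mars (methionyl) was at 8.84, 8.50 and 4.81 TPM against 11.8, 8.57 and 6.27 TPM. The span of Mars (127296221 to 127311786 on chromosome 10) overlaps that of Ddit3 (127290774 to 127296288) on the opposite strand. They share only a short stretch at their ends, and without a stated strand of the counting reads from it are uncertain. Tars (threonyl) and Vars were the members of this group with values above 0, both 0.17 (SE 0.33). Tars was at 33.0, 23.7 and 17.8 TPM against 31.2, 20.9 and 14.6 TPM, and Vars at 17.7, 12.6 and 8.74 TPM against 14.8, 12.5 and 7.18 TPM.

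Counted over the group, SRT1720 3 and Vehicle 3 were both below the other 4 libraries in 11 of 13 ATF4-target synthetases (84.6%). This pair of libraries took the same place in 2 of 7 other cytosolic genes (28.6%), 1 of 11 mitochondrial genes (9.09%) and 16.8% of all tested genes. SRT1720 1 and Vehicle 2, the libraries low in Krt5, were both above the other 4 in 6 of 13 ATF4-target genes (46.2%), 2 of 7 other cytosolic genes (28.6%), 0 of 11 mitochondrial genes and 16.2% of all genes. Both pairs of libraries were picked from these same data, and the lists were chosen with earlier results of the data known. These shares are therefore descriptions and not a test. The median of the 13 genes, as a log2 deviation from each gene's own mean, was 0.55, -0.12 and -0.76 in SRT1720 1 to 3 and 0.36, 0.35 and -0.53 in Vehicle 1 to 3. The 11 genes below 0 in the treatment comparison depend on single libraries: 2 of 13 were below 0 without SRT1720 3, 7 without Vehicle 1 or Vehicle 2, and 13 without SRT1720 1 or Vehicle 3. Without Sars the 12 others gave -0.73 in SRT1720 3 and -0.51 in Vehicle 3. The same libraries, SRT1720 3 and Vehicle 3, had the high values of Fbln1, although Dcn, another fibroblast marker, was at 0 in both. They also had the high values of mitochondrial ribosomal RNA and the low values of chromosome 3 genes. The part of these in the differences was not tested.

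**Figure D2:**
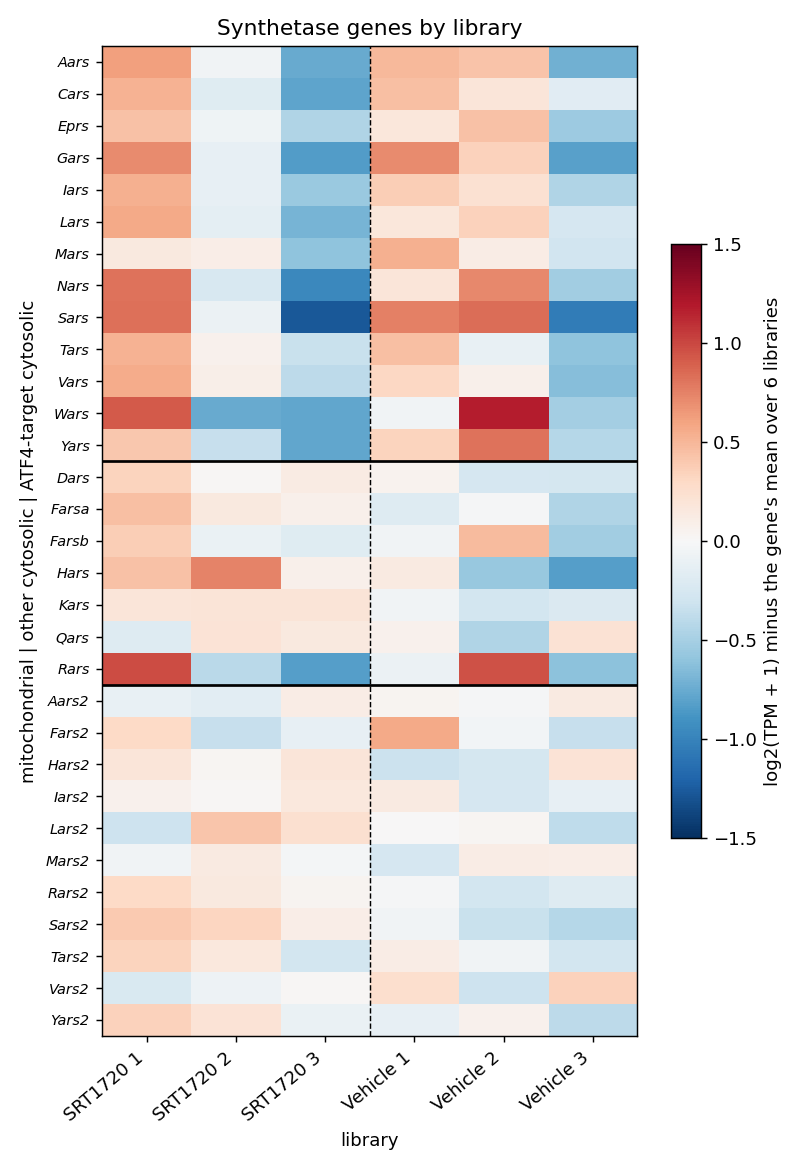
Each row is a tested synthetase gene and each column a library, coloured by log2(TPM + 1) minus the mean of the gene over the 6 libraries; rows are grouped as ATF4-target cytosolic, other cytosolic and mitochondrial genes. In the upper block SRT1720 3 and Vehicle 3 are both lowest in 11 of 13 rows, while mitochondrial rows show weaker colours.

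Promoter sequences, taken from RefSeq (GRCm38.p6, 250 bases before to 50 after the annotated start, printed on the strand of the gene), were found for 26 of the 36 members. In 23 of their 27 windows the bases after the start were found in a GENCODE transcript, so some annotated starts are uncertain. The sequences are shown here because ATF4 with a C/EBP partner binds a composite element, TGATGNAAN, which was searched on both strands. A match occurred in 5 members, Aars, Gars, Iars, Tars and Yars, all among the 7 ATF4-target genes with a window, in 0 of 5 other cytosolic and 0 of 14 mitochondrial genes with a window. Of all 32851 windows of the same length, 3.95% held a match. ATF4-target status was itself assigned from published work that includes such elements, so the group and the match are not independent. These 5 windows follow, with every match of this element in capitals; an element on the opposite strand reads as its reverse complement.
Aars (chr8:111033592-111033891, plus strand): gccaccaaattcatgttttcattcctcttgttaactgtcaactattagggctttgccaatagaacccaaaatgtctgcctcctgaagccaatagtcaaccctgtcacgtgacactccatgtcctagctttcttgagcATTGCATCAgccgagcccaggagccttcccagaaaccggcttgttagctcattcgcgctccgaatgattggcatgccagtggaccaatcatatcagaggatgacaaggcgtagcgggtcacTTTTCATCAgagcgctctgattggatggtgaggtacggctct
Gars (chr6:55037751-55038050, plus strand): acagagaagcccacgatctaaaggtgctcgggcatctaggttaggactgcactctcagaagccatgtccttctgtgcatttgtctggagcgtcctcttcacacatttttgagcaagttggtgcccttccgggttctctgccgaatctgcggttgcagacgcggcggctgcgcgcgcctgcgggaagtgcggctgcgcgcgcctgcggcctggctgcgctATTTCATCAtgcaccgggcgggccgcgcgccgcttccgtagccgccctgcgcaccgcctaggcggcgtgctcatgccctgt
Iars (chr13:49681880-49682179, plus strand): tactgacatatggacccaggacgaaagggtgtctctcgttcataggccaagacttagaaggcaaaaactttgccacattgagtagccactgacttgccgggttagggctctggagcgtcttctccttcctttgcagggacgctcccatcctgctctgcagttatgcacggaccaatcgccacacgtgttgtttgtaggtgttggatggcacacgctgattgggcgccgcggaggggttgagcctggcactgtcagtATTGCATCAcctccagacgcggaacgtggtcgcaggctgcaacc
Tars (chr15:11399609-11399908, minus strand): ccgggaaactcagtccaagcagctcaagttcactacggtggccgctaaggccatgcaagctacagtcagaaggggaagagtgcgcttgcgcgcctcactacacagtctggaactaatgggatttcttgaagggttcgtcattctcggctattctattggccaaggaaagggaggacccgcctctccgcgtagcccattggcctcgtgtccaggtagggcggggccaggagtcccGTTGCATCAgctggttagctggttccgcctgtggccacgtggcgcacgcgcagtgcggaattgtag
Yars (chr4:129189653-129189952, plus strand): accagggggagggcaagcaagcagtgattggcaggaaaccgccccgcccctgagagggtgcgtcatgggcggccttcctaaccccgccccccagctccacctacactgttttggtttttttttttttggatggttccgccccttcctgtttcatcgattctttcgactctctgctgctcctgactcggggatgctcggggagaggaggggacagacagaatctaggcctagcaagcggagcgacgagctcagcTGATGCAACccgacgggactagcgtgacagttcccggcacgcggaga
The first base of the match lay 113 bases before and 8 after the annotated start in Aars, 31 before it in Gars, 6 after it in Iars, 16 before it in Tars and 3 after it in Yars. A match is a description of the letters and not of binding. The 5 genes with a match did not share a direction, with log2 fold changes of -0.13, -0.16, -0.10, 0.17 and -0.48 in the order printed. The cyclic AMP response element TGACGTCA was in 0 of the members' windows and 1.79% of all windows. The E-box CACGTG was in the windows of 5 members, Aars, Iars, Tars, Farsb and Ears2, and 7.15% of all windows, and it shared no bases with the first element in the windows holding both. Sequences of Cars, Hars, Hars2, Lars, Mars, Nars, Pars2, Rars, Vars and Wars were not used here.

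The other 7 cytosolic synthetases had a median log2 fold change of 0.31, with 6 above 0 and 1 below. Kars (ENSMUSG00000031948, chromosome 8, 111993443 to 112011323 on GRCm38) was at 15.5, 15.6 and 15.6 TPM with SRT1720 and 13, 11 and 11.5 TPM with vehicle. All 3 treated libraries lay above all 3 vehicle libraries, and the treated ones were almost identical. The means were 15.6 ± 0.0859 and 11.8 ± 1.04 TPM (SD, n = 3 each), and the log2 fold change was 0.37 (SE 0.15, p = 0.0443, adjusted p = 0.391, limma; exact permutation p = 0.1). The exact test is two-sided, and 0.1 is the smallest p that 3 against 3 libraries allow. Kars also showed the smallest ratio of highest to lowest library among the cytosolic members, 1.42.

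Farsa (ENSMUSG00000003808, chromosome 8, 84856989 to 84869257) was at 4.72, 3.63 and 3.40 TPM with SRT1720 and 2.65, 3.15 and 2.06 TPM with vehicle. The groups did not overlap, with SRT1720 higher. Means were 3.92 ± 0.705 and 2.62 ± 0.548 TPM (SD, n = 3 each), a log2 fold change of 0.44 (SE 0.18, p = 0.0433, adjusted p = 0.389, limma; exact permutation p = 0.1). Its partner subunit Farsb was at 12.1, 8.50 and 7.93 TPM against 8.81, 13.1 and 6.09 TPM. The groups of Farsb overlapped (log2 fold change 0.06, SE 0.29, adjusted p = 0.958, limma), and whether the subunits differ in their response was not tested.

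Hars (histidyl, ENSMUSG00000001380) had the highest fold change of the family and was at 18.7, 23.3 and 14.2 TPM with SRT1720 and 14.9, 8.73 and 7.17 TPM with vehicle. The groups overlapped, because SRT1720 3 lay below Vehicle 1. Means were 18.7 ± 4.54 and 10.3 ± 4.09 TPM (SD, n = 3 each), with a log2 fold change of 0.84 (SE 0.30, p = 0.0284, adjusted p = 0.355, limma; exact permutation p = 0.2). The spans of Hars and Hars2, the mitochondrial histidyl gene, overlap on opposite strands of chromosome 18 (36766528 to 36783205 and 36783008 to 36792562), so reads from the shared stretch are uncertain. Hars2 itself was at 2.17, 1.86 and 2.17 TPM against 1.24, 1.33 and 2.24 TPM, with Vehicle 3 the highest of all.

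Dars (aspartyl) was at 12.1, 9.48 and 10.3 TPM with SRT1720 and 9.73, 7.74 and 7.63 TPM with vehicle. Only SRT1720 2 and Vehicle 1 were out of order between the groups (log2 fold change 0.31, SE 0.17, adjusted p = 0.507, limma). Qars (glutaminyl) was at 2.84, 4.06 and 3.85 TPM against 3.57, 2.20 and 4.08 TPM, with overlapping groups. Rars was at 36.3, 13.3 and 9.69 TPM against 16.8, 35.7 and 11.4 TPM. As in Nars and Wars, SRT1720 1 and Vehicle 2 were the high libraries of Rars, although it is not in the ATF4-target list used here.

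For comparison, the windows of Kars and Farsa, whose groups separated, are shown with that of Sars2, the member with the smallest p, and that of Eprs, the member with the largest.
Kars (chr8:112011305-112011604, minus strand): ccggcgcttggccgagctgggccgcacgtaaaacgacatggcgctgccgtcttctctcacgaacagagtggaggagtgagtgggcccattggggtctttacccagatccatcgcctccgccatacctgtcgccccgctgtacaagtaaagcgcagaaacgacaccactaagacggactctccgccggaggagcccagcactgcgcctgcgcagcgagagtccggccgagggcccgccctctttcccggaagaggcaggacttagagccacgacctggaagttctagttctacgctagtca
Farsa (chr8:84856736-84857035, plus strand): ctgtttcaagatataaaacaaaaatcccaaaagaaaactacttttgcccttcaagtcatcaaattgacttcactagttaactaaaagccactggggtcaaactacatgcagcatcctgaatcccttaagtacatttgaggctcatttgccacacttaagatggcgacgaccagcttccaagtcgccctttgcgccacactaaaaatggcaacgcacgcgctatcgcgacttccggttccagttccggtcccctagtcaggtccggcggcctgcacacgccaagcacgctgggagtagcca
Sars2 (chr7:28741718-28742017, plus strand): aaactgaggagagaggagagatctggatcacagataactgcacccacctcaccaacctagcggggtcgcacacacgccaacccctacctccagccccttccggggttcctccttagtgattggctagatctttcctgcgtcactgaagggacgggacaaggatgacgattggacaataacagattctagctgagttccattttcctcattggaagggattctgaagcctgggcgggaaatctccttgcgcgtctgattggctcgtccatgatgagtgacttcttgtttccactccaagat
Eprs (chr1:185362794-185363093, plus strand): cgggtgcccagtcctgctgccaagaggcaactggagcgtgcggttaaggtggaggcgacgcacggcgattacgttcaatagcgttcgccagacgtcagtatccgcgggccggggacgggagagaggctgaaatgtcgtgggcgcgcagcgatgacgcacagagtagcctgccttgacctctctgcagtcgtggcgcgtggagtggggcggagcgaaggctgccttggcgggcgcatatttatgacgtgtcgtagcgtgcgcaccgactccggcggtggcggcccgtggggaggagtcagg
None of the 3 elements was found in these 4 windows, so they carry no capitals.

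**Figure D3:**
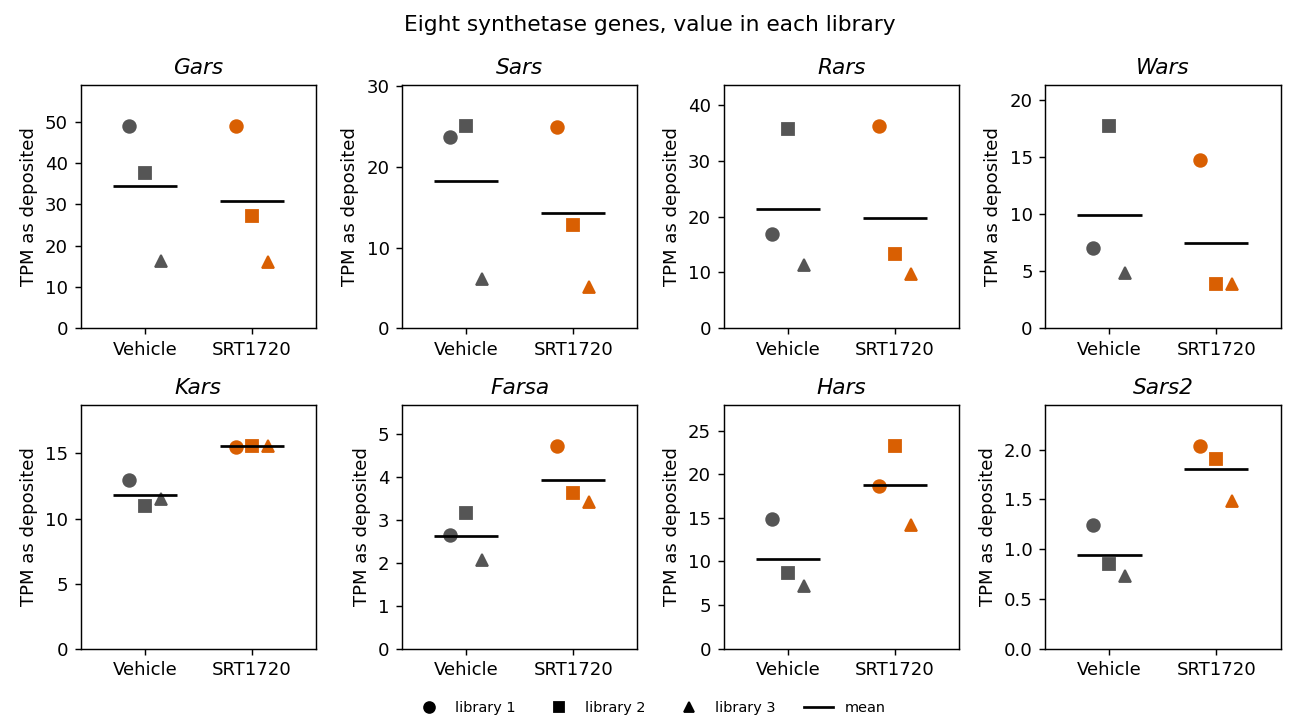
TPM as deposited (vertical axis from 0) of 8 synthetase genes in Vehicle and SRT1720; each marker is a library, its shape giving the library number, and the line is the mean of 3. In the upper row (Gars, Sars, Rars, Wars) libraries of a group spread over the whole range, and in the lower row Kars, Farsa and Sars2 have all SRT1720 libraries above all Vehicle libraries.

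Of the 20 cytosolic genes, 8 encode enzymes of the multi-synthetase complex, a cytosolic assembly held together by the scaffold proteins Aimp1, Aimp2 and Eef1e1. Of these enzymes (Dars, Eprs, Iars, Kars, Lars, Mars, Qars, Rars) 3 lay above 0 and 5 lay below, around a median log2 fold change of -0.07. The scaffold Aimp2 was at 4.72, 4.22 and 3.46 TPM with SRT1720 and 3.01, 3.20 and 2.67 TPM with vehicle. The groups of Aimp2 did not overlap (log2 fold change 0.37, SE 0.15, adjusted p = 0.396, limma), whereas those of Aimp1 (-0.08, SE 0.30) and Eef1e1 (0.13, SE 0.36) did. The span of Aimp2 overlaps that of the kinase gene Eif2ak1 on the opposite strand, so reads of the shared stretch are uncertain for both. By structural class, the 10 class I enzymes had a median of -0.17 with 2 above 0, and the 11 class II enzymes a median of 0.06 with 6 above 0; Eprs counts in both.

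Among mitochondrial synthetases, Sars2 (seryl, ENSMUSG00000070699, chromosome 7, 28741992 to 28753871) had the smallest p of the family. It was at 2.04, 1.91 and 1.48 TPM with SRT1720 and 1.24, 0.848 and 0.732 TPM with vehicle. All SRT1720 libraries lay above all Vehicle libraries. Means were 1.81 ± 0.294 and 0.940 ± 0.266 TPM (SD, n = 3 each), a log2 fold change of 0.54 (SE 0.16, p = 0.0127, adjusted p = 0.317, limma; exact permutation p = 0.1). Rars2 (arginyl) was at 2.91, 2.50 and 2.27 TPM against 2.14, 1.61 and 1.76 TPM. Its groups did not overlap either, with a log2 fold change of 0.33 (SE 0.14, p = 0.0571, adjusted p = 0.412, limma; exact permutation p = 0.1).

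The groups overlapped for the other 9 tested mitochondrial genes. Yars2 (tyrosyl) was at 2.68, 2.35 and 1.71 TPM with SRT1720 and 1.67, 2.03 and 1.21 TPM with vehicle (log2 fold change 0.30, SE 0.18, adjusted p = 0.553, limma). Lars2 was at 5.26, 9.36 and 8.15 TPM against 6.78, 6.90 and 4.98 TPM, with SRT1720 2 highest and Vehicle 3 lowest. Iars2 was at 3.28, 3.16 and 3.59 TPM against 3.51, 2.44 and 2.76 TPM. These 3 genes and Hars2, Tars2 (threonyl) and Mars2 (methionyl) had values above 0, at 0.30, 0.23, 0.16, 0.25, 0.15 and 0.04. Aars2 (alanyl), Fars2 (phenylalanyl) and Vars2 (valyl) were at -0.11, -0.12 and -0.19. Vars2 was at 1.15, 1.38 and 1.54 TPM against 1.98, 1.02 and 2.19 TPM, so that Vehicle held both its highest and its lowest library. Tars2, on chromosome 3, was at 1.85, 1.51 and 0.872 TPM against 1.44, 1.18 and 0.861 TPM, lowest in SRT1720 3 and Vehicle 3 like Sars. Fars2 was at 4.15, 2.30 and 2.86 TPM against 5.21, 3.07 and 2.30 TPM, with overlapping groups. Annotated spans of Yars, Fars2, Iars2, Ears2 and Cars2 also overlap other genes, which makes their counts uncertain. Aars2 was the steadiest of the tested members, with its highest library 1.32 times its lowest (2.42 to 3.20 TPM).

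The spread between libraries was smaller for mitochondrial than for cytosolic genes. The median ratio of highest to lowest library was 1.88 for the 11 tested mitochondrial genes and 2.49 for the 20 cytosolic genes, against 1.98 for all genes. It was at least 3 in 0 mitochondrial genes, 7 cytosolic genes and 19.4% of all tested genes. The median deviation of the mitochondrial genes was 0.18, 0.14 and 0.04 in SRT1720 1 to 3 and 0.00, -0.05 and -0.20 in Vehicle 1 to 3. Within groups the list median had a standard deviation of 0.09 log2 for mitochondrial and 0.50 log2 for cytosolic genes. Low genes vary less on the log2(TPM + 1) scale, and the difference between the lists was not tested.

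Mitochondrial genes below the filter were 5. Pars2 (prolyl), with a mean of 0.831 TPM, lay just under it and Mars2, with 1.16 TPM, just over it. Cars2 (cysteinyl) was at 0.663, 0.881 and 0.969 TPM with SRT1720 and 0.318, 0.562 and 0.476 TPM with vehicle. Its groups did not overlap, and without the filter limma gave a log2 fold change of 0.34 (SE 0.14, p = 0.0495, adjusted p = 0.682; exact permutation p = 0.1). Nars2 (asparaginyl) was the most even, its highest library 1.12 times its lowest, with a log2 fold change of 0.02 without the filter. Wars2, on chromosome 3, was at 0.646, 0.522 and 0.210 TPM against 0.643, 0.500 and 0.269 TPM, low in the third library of each group. Ears2 and Pars2 had log2 fold changes of 0.04 and 0.02 without the filter.

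Genes that act before and after charging were listed with the family. Of 44 tRNA processing and modification genes 33 were tested; 28 lay above 0 and 5 lay below, and the median log2 fold change was 0.25. The groups did not overlap for 13 of them (39.4%, all higher with SRT1720) against 12.1% higher over all genes, yet 0 passed the adjusted threshold. Median-of-ratios scaling lowered the share of higher genes among all genes under the unadjusted threshold. The pathway lists were not counted again under that scaling. The smallest p was that of Trmt6, a subunit of a tRNA adenosine methyltransferase, at 2.64, 2.47 and 2.28 TPM with SRT1720 and 1.21, 1.36 and 1.44 TPM with vehicle (log2 fold change 0.57, SE 0.12, adjusted p = 0.261, limma). Trmt61a, its catalytic partner, was at 3.32, 1.92 and 2.13 TPM against 1.30, 1.24 and 0.678 TPM (0.73, SE 0.21, adjusted p = 0.307, limma). Elac2, which trims the 3′ end of precursor tRNAs, and Pop4, a subunit of RNase P, had log2 fold changes of 0.60 and 0.56, each with groups that did not overlap.

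Of 21 genes for transcription by RNA polymerase III, which makes tRNAs, 19 were tested; 16 lay above 0, 3 lay below, and the median log2 fold change was 0.24. Polr3b, a large catalytic subunit, was at 2.43, 2.19 and 2.09 TPM with SRT1720 and 1.22, 1.17 and 1.18 TPM with vehicle (log2 fold change 0.56, SE 0.12, adjusted p = 0.258, limma). Maf1, the repressor of this polymerase, was at 1.86, 1.83 and 2.05 TPM against 3.39, 2.32 and 4.35 TPM (-0.55, SE 0.19, adjusted p = 0.355, limma). Groups did not overlap for either gene. Over the list this held for 5 of 19 genes (26.3%), 4 higher and 1 lower with SRT1720. Over all tested genes it held for 19.9% (12.1% higher, 7.75% lower). Polr3f, another subunit, had a log2 fold change of 0.38. Of the 5 genes of tRNA export and delivery, 3 lay above 0 and 2 below. Groups did not overlap for Xpo5, higher with SRT1720 at 0.71 (SE 0.28, adjusted p = 0.376, limma), and for the delivery gene Eef1a1, which was lower. This share, 2 of 5 genes (40%) against 19.9% of all tested genes, rests on 2 genes. Eef1a1 was at 379, 375 and 347 TPM against 465, 391 and 539 TPM (-0.33, SE 0.16, adjusted p = 0.451, limma). Tufm lay at 0.50 (SE 0.21) with overlapping groups, and the exporter Xpot, the gene of largest p here, at -0.05 (SE 0.40). Of 4 genes of mitochondrial amidation and formylation 3 were tested (median 0.04), and of 4 proofreading genes 3 (median 0.11), with overlapping groups in all 6. The related synthetase gene Tarsl2 was under the filter.

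Sensors and targets of the amino acid response outside the family varied more widely than the synthetases. Of 34 such genes 33 were tested; 7 lay above 0 and 26 below, the median log2 fold change was -0.42, and the median ratio of highest to lowest library was 4.85. The groups did not overlap for 3 of 33 (9.09%), 1 higher and 2 lower, below the 19.9% of all tested genes in either direction (12.1% higher, 7.75% lower). Pycr1, the last enzyme of proline synthesis, was at 3, 1.10 and 1.22 TPM with SRT1720 and 5.56, 4.60 and 3.62 TPM with vehicle (log2 fold change -1.06, SE 0.28, adjusted p = 0.292, limma). Slc38a2, a transporter of neutral amino acids, was at 65.0, 42.8 and 52.4 TPM against 68.8, 91.4 and 87.1 TPM (-0.63, SE 0.22, adjusted p = 0.353, limma). Eif2ak1, a kinase upstream of ATF4, was the reverse, at 0.44 (SE 0.13, adjusted p = 0.308, limma), with the uncertainty from its overlap with Aimp2. Asns (asparagine synthetase), next by p, was at 38.1, 21.1 and 10.1 TPM against 49.0, 35.1 and 26.1 TPM, with overlapping groups.

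Without the 5 sensors, 28 tested response genes had medians of 0.81, -0.52 and -1.02 in SRT1720 1 to 3 and 0.39, 0.85 and -0.45 in Vehicle 1 to 3. SRT1720 1, Vehicle 1 and Vehicle 2 were thus the high libraries, as for the ATF4-target synthetases. Atf4 itself, named here after its values were seen, was at 133, 70.3 and 52.6 TPM with SRT1720 and 109.8, 160.2 and 66.6 TPM with vehicle (log2 fold change -0.41, SE 0.43, adjusted p = 0.761, limma). The kinase gene Eif2ak4 stayed between 1.27 and 1.95 TPM in all 6 libraries.

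**Figure D4:**
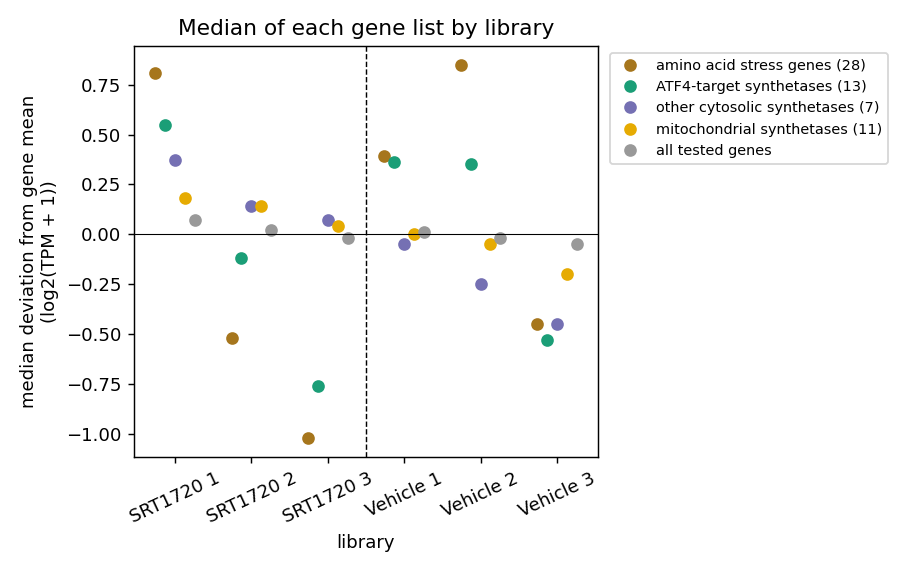
Median over each gene list of the deviation of a gene from its own mean (vertical axis, log2(TPM + 1)) in each library; colours mark the lists, points are set side by side for legibility. The amino acid stress genes and the ATF4-target synthetases are high in SRT1720 1, Vehicle 1 and Vehicle 2 and low in the other 3 libraries, and the mitochondrial synthetases stay between -0.20 and 0.18.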

How the data were processed

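RNA of mouse bladder tumor organoids was measured in 3 SRT1720 and 3 Vehicle libraries, grouped and numbered from the sample titles. The authors deposited 1 table of TPM values; the submitters' processing notes name STAR 2.6.0 and GRCm38. The counter, annotation and gene lengths were not given in the sources used here. Columns of the deposited TPM table sum to 161231 to 171577, less than TPM by definition, pseudogenes hold 44.0% to 46.9% of them, and genes with close copies are uncertain. GENCODE M21 gave names for 51633 IDs and not for 279.

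Values times a whole-number length fell on multiples of 1 read, which gave whole reads within 0.01 for all 27713 IDs above 0 (all reads recovered for 98.5% of 1500 genes in simulated data). Because the lengths in the table can exceed the transcripts, levels between genes were given per longest GENCODE transcript. The labels name no molecular identifiers, so read counts show counting error only.

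The test was limma 3.58.1 (R 4.3.3), fitted on log2(TPM + 1) with a trend in the prior variance, for genes with a mean of at least 1, with no covariate, adjusted over all 9287 genes at 0.05, and was tested on simulated data. All 36 members are named; other lists are given by counts with at most the 4 genes of smallest p, with exceptions stated, and some genes of these lists are not reported here. Promoters were printed for the members with the smallest p (none for Hars), for the one with the largest, and for those holding the ATF element. Members and lists were chosen with earlier results of these data known. Alternatives were another added constant (0.1), no filter or a mean of 5, median-of-ratios or quantile scaling, voom on recovered reads, the replicate number as a block, and libraries left out.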

Additional observations from a re-analysis of the deposited data

How the results depend on the processing

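No gene passed the adjusted threshold in any of 15 alternatives by limma or voom, and the smallest adjusted p of a synthetase was 0.307. Genes under an unadjusted p of 0.05 numbered 2028 without a filter, 498 with a mean of at least 5, 682 without both SRT1720 3 and Vehicle 3, and 523 to 1054 without single libraries, the lowest without SRT1720 2, against 1153. The cytosolic median log2 fold change, -0.11, ran from -0.38 (without SRT1720 1) to 0.18 with single libraries left out and turned positive without SRT1720 3 (0.18), Vehicle 1 (0.06) or Vehicle 2 (0.06); the cause was not tested. The 3 cytosolic genes under an unadjusted p of 0.05 became 0 without SRT1720 1 and Vehicle 2 together, 0 without SRT1720 3 and Vehicle 3 together, and 0 to 2 without single libraries (0 without SRT1720 1, SRT1720 2 or Vehicle 3, and 1 without Vehicle 2). They were 2 with the replicate block, with either other scaling and with a mean of at least 5. The 1 mitochondrial gene became 2 without a filter, 0 with a mean of at least 5 (1 gene left in the test), 0 without SRT1720 1 and Vehicle 2, and 1 to 2 without single libraries (2 without Vehicle 1, Vehicle 2 or Vehicle 3). Of the 31 tested members 14 kept their sign in every alternative, among them Kars (0.32 to 0.43), Farsa (0.33 to 0.59), Hars (0.64 to 1.12) and Sars2 (0.45 to 0.96), and 17 changed it at least once. Members above 0 numbered 8 of 20 and 8 of 11 under both other scalings. Replicate numbers did not pair the libraries: deviations correlated at -0.20, -0.26 and 0.79 for numbers 1 to 3 over genes. The fit with the replicate block gave 1133 genes unadjusted, 0 adjusted, and medians of -0.11 and 0.16, and changed no adjusted call, and Vehicle 3 and SRT1720 3 alone correlated best with their own number.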
